A study of Rattus norvegicus with 15 samples.

Results

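Adult knee articular cartilage was compared with newborn knee articular cartilage of the Sprague-Dawley rat, a laboratory strain, over every gene named on the array. The comparison holds 6 of the series' 15 samples, chosen by stage label: the 3 labelled T2 (adult) and the 3 labelled T0 (newborn). It covers 18166 genes, which were named by 18511 of 36685 probe sets. Every sample is total RNA from the ground cartilage of 1 right knee, and samples of 1 stage are biological replicates by their titles. The labels name no allele and no agent for any sample, and stage is the difference that they give. Age in days, sex, array batch and the way in which neighbouring tissue was cut away were not given in the labels, so differences of these kinds between the stages cannot be told apart from stage. The other 9 arrays, 3 each of youth (T1), early-stage elderly rats (T3) and rats of the latter-stage elderly group (T4), entered the model for its estimate of spread. Youth values are given below as description. The source name of T1 replicate 3 says adult where its title and stage say youth, and it was kept with youth.

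Articular cartilage covers the ends of bones in a joint and is built by 1 cell type, the chondrocyte, in a matrix of type II collagen fibrils and aggrecan. In a newborn rodent this cartilage is continuous with the growing cartilage of the bone end, holds dividing cells and is fed by signals such as insulin-like growth factors, hedgehog and fibroblast growth factors. In the adult the cells seldom divide and a thin layer rests on bone, close to marrow, synovium, tendon and muscle. Many genes that drive growth before and around birth are imprinted, which means that 1 parental copy is silent, and several lie in clusters with microRNA genes.

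A value is a log2 RMA signal, so a difference of 1 is a doubling of signal, and levels are compared between stages for the same probe set and not between genes. A gene was called where limma's Benjamini-Hochberg adjusted p over all probe sets was under 0.05, and rose and fell mean called and higher or lower in the adult. Of all probe sets, 4659 were called (12.7%), 2388 upward (6.51%) and 2271 downward (6.19%). Of the genes, 3416 were called (18.8%), 1680 upward (9.25%) and 1736 downward (9.56%), and these are the shares to set beside every list below. The 3 newborn and 3 adult arrays did not overlap for 8417 genes (46.3%), so a gap between the groups alone is common. The called changes were at least 4-fold for 529 genes that rose and 393 that fell, and at least 32-fold for 33 and 33. No detection call was used here, so it is not known which low signals stand above background, and these fold counts are of measured signal only. The median change over all genes was -0.02, and the 5th and 95th percentiles were -1.27 and 1.45. Array medians lay between 4.97 and 5.07, and the mean correlation between arrays was 0.977 within newborn, 0.974 within adult and 0.896 between the groups.

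**Figure D1:**
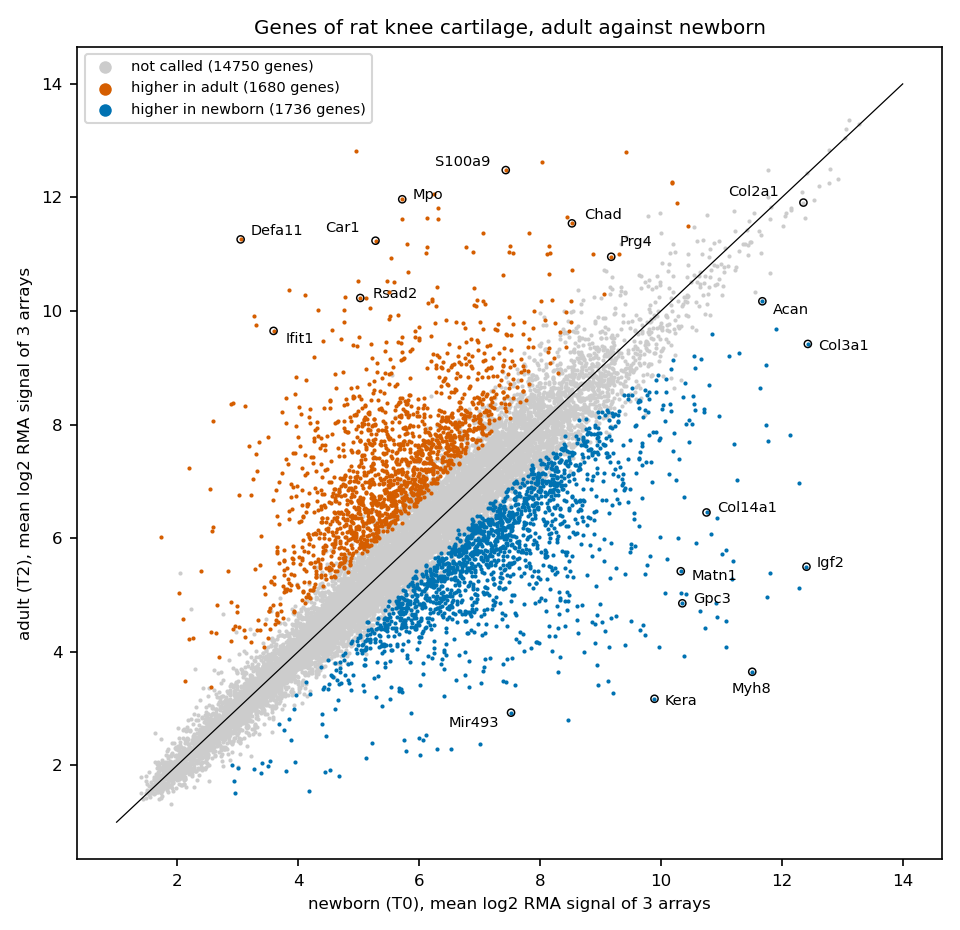
Mean log2 RMA signal of the 3 adult arrays (vertical axis) against that of the 3 newborn arrays (horizontal axis), 1 point per gene, with genes called in orange (1680 rose) and blue (1736 fell) and the line of equal signal. Circled genes are named in the text, and Defa11 and Myh8 stand among the points farthest from the line.

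Most of the 12 largest rises were in genes of blood cells and their precursors, and most of the 12 largest falls in genes of skeletal muscle. The alpha-defensin Defa11, an antimicrobial peptide, read 3.19, 3.20 and 2.76 in the newborn arrays and 11.46, 11.20 and 11.13 in the adult arrays. It rose by 8.21 (SE 0.52, limma adjusted p = 1.36e-07). Defensin genes are close copies of each other, so a probe set may read more than 1 of them. The other 11 of the 12 genes with the largest rise were the defensin Defa5 (by 7.85), the myeloid membrane protein Ms4a3 (6.65), the neutrophil peptide Retnlg (6.53), the serpin Serpinb10 (6.45), the myeloperoxidase Mpo (6.24), the antibody joining chain Jchain (6.17), the interferon-induced Ifit1 (6.06), the red cell carbonic anhydrase Car1 (5.96), the neutrophil calcium-binding protein S100a8 (5.91), the neutrophil granule protein Ngp (5.80) and the protease Mcpt8l2 (5.68). The myosin heavy chain Myh8, the perinatal form of skeletal muscle, read 11.47, 11.74 and 11.33 in the newborn arrays and 3.38, 3.73 and 3.84 in the adult arrays. It fell by 7.86 (SE 0.20, limma adjusted p = 4.06e-11). Of the 12 largest falls, 10 were muscle genes, for example Myl1 (by 7.16), Actn2 (6.99), Tnnc2 (6.80), Csrp3 (6.55) and Neb (6.30). The other two were the growth factor Igf2 and the keratan sulfate proteoglycan Kera.

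Markers of neighbouring tissues differed between the stages, with those of muscle and tendon higher in the newborn. In the skeletal muscle list 27 of 28 measured genes fell and none rose, with a median change of -4.65. The mean log2 signal of the list was 9.27, 9.43 and 8.91 in the newborn arrays and 4.79, 5.03 and 4.86 in the adult arrays, with youth between 6.51 and 7.46. The skeletal actin Acta1 read 11.31, 11.23 and 11.00 in the newborn arrays and 5.06, 5.53 and 5.26 in the adult arrays, and the muscle stem cell factor Pax7 read 6.16, 6.41 and 6.12 in the newborn arrays and 5.43, 5.66 and 5.05 in the adult arrays. No array of one stage reached the other for these genes, and both fell, by 5.90 and 0.85 (limma adjusted p = 2.62e-08 and 0.0129). The call of Pax7 was lost without T0 replicate 2 (limma adjusted p = 0.0706) or T2 replicate 3 (0.0828). Of the tendon, ligament and synovial fibroblast list, 12 of 21 fell and 2 rose. The tendon protein Tnmd read 9.99, 9.92 and 10.01 in the newborn arrays and 4.64, 4.12 and 3.50 in the adult arrays and fell by 5.89, and the tendon transcription factor Mkx fell by 1.24. The 2 risers of the list were Dpp4 (2.92) and Prg4, which is described with the joint surface below, and the rises numbered 1 without T0 replicate 1 or 2 or T2 replicate 1 or 3. Genes of smooth muscle and pericytes fell in 11 of 13 cases, led by Des (5.58), which skeletal muscle also expresses. Endothelial genes fell in 6 of 15, among them Cdh5 (2.07) and Plvap (1.57), in 3 without T2 replicate 3 and in 2 without T2 replicate 2. Of the nerve and Schwann cell list 3 of 16 fell and 1 rose. The myelin gene Pmp22 fell by 2.82 and the receptor Erbb3 by 1.56, and the myelin gene Mbp rose by 1.68. Refits under other settings gave Mbp rises from 0.77 to 1.88.

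Blood and marrow genes had the opposite direction. The neutrophil and primary granule list rose in 22 of 27 measured genes and fell in none, with a median change of 4.81. Its mean log2 signal was 6.00, 5.13 and 5.66 in the newborn arrays and 9.68, 9.78 and 9.85 in the adult arrays, and youth lay between 8.26 and 8.53. The elastase Elane read 5.29, 5.02 and 4.68 in the newborn arrays and 10.79, 10.23 and 10.55 in the adult arrays. It rose by 5.52 (SE 0.49, limma adjusted p = 3.02e-06), and the calcium-binding protein S100a9 rose by 5.05. Erythroid genes rose in 13 of 16 cases, with the anion exchanger Slc4a1 higher by 4.87 and the factor Gata1 by 2.92, while the embryonic globin genes Hbe1 (-0.06) and Hbz (-0.40) were not called. B cell genes rose in 17 of 18 cases. The recombinase Rag1, active in B cell precursors of marrow, read 5.22, 4.70 and 4.32 in the newborn arrays and 7.79, 7.48 and 7.37 in the adult arrays and rose by 2.80 (limma adjusted p = 4.04e-06). Megakaryocyte and platelet genes rose in 9 of 11 cases, with Ppbp up by 5.26 and Itga2b by 2.74. Of the macrophage and monocyte list 6 of 19 rose, among them Ccr2 (by 4.53) and Fcgr1a (3.36), while the resident macrophage genes C1qa (0.38), C1qb (-0.52) and Mrc1 (-0.29) were not called. T and NK cell genes rose in 6 of 21 cases, with Nkg7 up by 5.47 and Cd8a by 1.65, and with the receptor parts Cd3d (0.50) and Cd3e (0.30) not called. Antibody V segment genes rose in 16 of 48 cases and fell in none.

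Of the osteoblast and osteocyte list, 4 of 18 rose and 1 fell, against a share of 9.25% of all genes that rose. The osteocyte genes Dmp1 and Mepe rose by 2.23 and 1.84, and osteocalcin, Bglap, by 2.95. The bone collagen Col1a1 (-0.53), the osteoblast factor Sp7 (0.01) and the mineral-binding Ibsp (-0.36) were not called. Osteoclast genes rose in 3 of 9 cases, of which Car2 also marks red cells. Of the adipocyte list, 4 of 14 rose and 2 fell. Cfd rose by 2.06 and Dgat2 by 2.03, the lipase Lpl fell by 1.96, and Adipoq (0.76) was not called. The 2 adipocyte falls numbered 1 without T0 replicate 1 or 2 or any single T2 array. Mast cell genes rose in 6 of 13 cases and fell in 3. The granule protease Mcpt10 rose by 4.29 and the IgE receptor part Ms4a2 by 3.45, and the connective tissue tryptases Tpsb2 and Tpsab1 and the carboxypeptidase Cpa3 fell by 1.19, 1.42 and 1.12. The call of Tpsb2 was lost without T0 replicate 1, T0 replicate 3, T2 replicate 1 or T2 replicate 3 (limma adjusted p from 0.0565 to 0.0664). The call of Tpsab1 was lost without T0 replicate 1, T0 replicate 2, T0 replicate 3, T2 replicate 1 or T2 replicate 2 (limma adjusted p from 0.0548 to 0.079). The call of Cpa3 was lost without T0 replicate 1 (limma adjusted p = 0.0787), T0 replicate 3 (0.0578) or T2 replicate 2 (0.112). The 3 mast cell falls numbered 0 without T0 replicate 1 or 3 and 1 without T2 replicate 1 or 2, and the rises numbered 3 without T0 replicate 2. In such bulk RNA, fewer cells of a type and less RNA per cell cannot be told apart. The muscle, tendon and blood levels above moved with stage in the same 6 arrays as all lists below, and their part in those results was not tested.

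**Figure D2:**
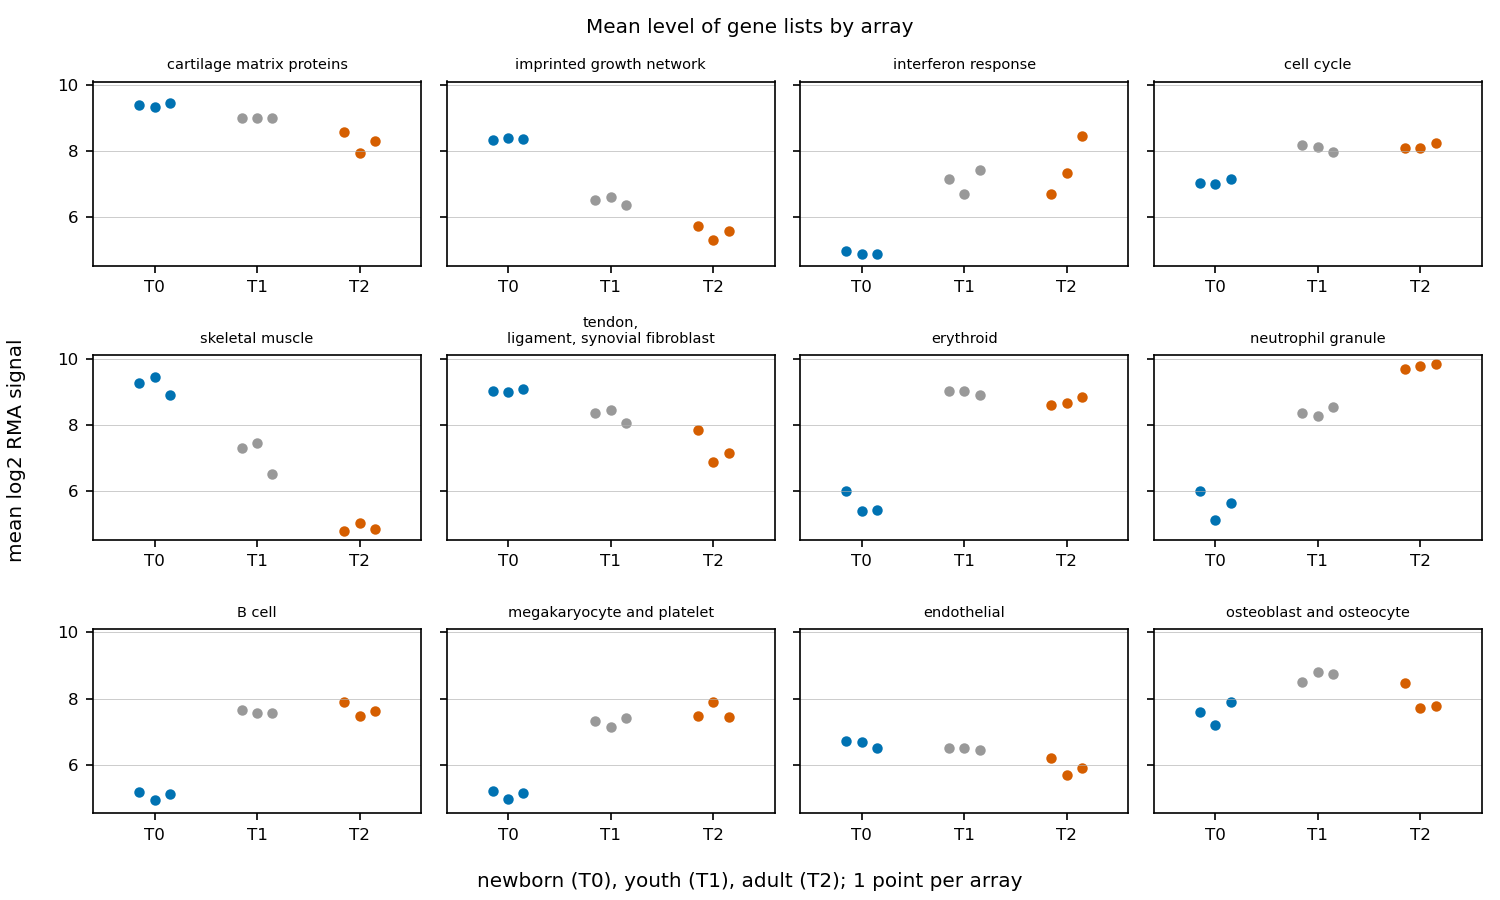
Mean log2 RMA signal over the measured members of 12 gene lists (vertical axis), 1 point per array, for newborn (T0), youth (T1) and adult (T2), 3 arrays each. The skeletal muscle list is highest in newborn and lowest in adult, the neutrophil, erythroid, B cell and platelet lists are lowest in newborn, and the interferon list differs most among the adult arrays.

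The labelled tissue was checked against chondrocyte markers, of which 8 of 9 were measured. Comp is not named in the annotation used here. Type II collagen, Col2a1, the main fibril of cartilage, read 12.36, 12.30 and 12.41 in the newborn arrays and 12.34, 11.40 and 11.99 in the adult arrays. The adult values overlapped the newborn ones and the difference was -0.45 (SE 0.56, limma adjusted p = 0.81), so no change was detected with 3 arrays a group. The chondrocyte factor Sox9 read 5.45, 5.25 and 5.46 in the newborn arrays and 5.25, 5.13 and 5.31 in the adult arrays, close to the array medians, and its difference of -0.15 was not called. Of the 8 markers, 5 fell, 1 rose and 2 were not called.

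Cartilage matrix genes fell far more often than they rose, although the main collagen was not called. Of 21 measured genes, 12 fell and 1 rose, with a median change of -1.14 against -0.02 for all genes. Matrilin 1, Matn1, a linker of collagen fibrils in immature cartilage, read 10.33, 10.35 and 10.30 in the newborn arrays and 5.54, 5.15 and 5.56 in the adult arrays. All adult arrays lay below all newborn arrays, and it fell by 4.91 (SE 0.23, 30.1-fold, limma adjusted p = 1.33e-08), with youth in between at 7.76 ± 0.41 (SD, n = 3). Its relative Matn3 fell by 1.52. The call of Matn3 was lost without T2 replicate 2 (limma adjusted p = 0.0639). Chains of collagens IX and XI, which sit on and in the type II fibril, fell. Col9a1 read 11.22, 11.25 and 11.43 in the newborn arrays and 9.36, 8.97 and 9.45 in the adult arrays and fell by 2.04 (SE 0.45, limma adjusted p = 0.00623), a call lost after quantile normalization (limma adjusted p = 0.0542). Col9a2 fell by 2.87, Col11a1 by 1.93 and Col11a2 by 1.70. The call of Col11a1 was lost without T2 replicate 2 (limma adjusted p = 0.0615) and after quantile normalization (0.0624). Link protein, Hapln1, which ties aggrecan to hyaluronan, fell by 1.08, a call lost after cyclic loess (limma adjusted p = 0.0764). The large proteoglycan Vcan of immature matrix fell by 2.05, the growth zone protein Ucma by 2.18 and chondromodulin, Cnmd, an inhibitor of vessel growth, by 1.67. Aggrecan, Acan, read 11.71, 11.50 and 11.82 in the newborn arrays and 10.60, 9.77 and 10.15 in the adult arrays and fell by 1.51 (SE 0.47, limma adjusted p = 0.04995), just inside the threshold. Without any single one of the 6 arrays it was not called, with an adjusted p of 0.0552 when T2 replicate 1 was left out and up to 0.192 when T2 replicate 2 was. Chondroadherin, Chad, a leucine-rich protein that binds collagen and integrins, was the list's single riser. It read 8.42, 8.30 and 8.87 in the newborn arrays and 12.09, 10.95 and 11.59 in the adult arrays, no adult array overlapped a newborn one, and it rose by 3.01 (SE 0.49, 8.08-fold, limma adjusted p = 0.000556). The youth arrays were already at 11.33 ± 0.29 (SD, n = 3). Cilp (0.98), a protein of the middle cartilage zones, Snorc (-0.23) and Mia (-0.95) were not called.

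**Figure D3:**
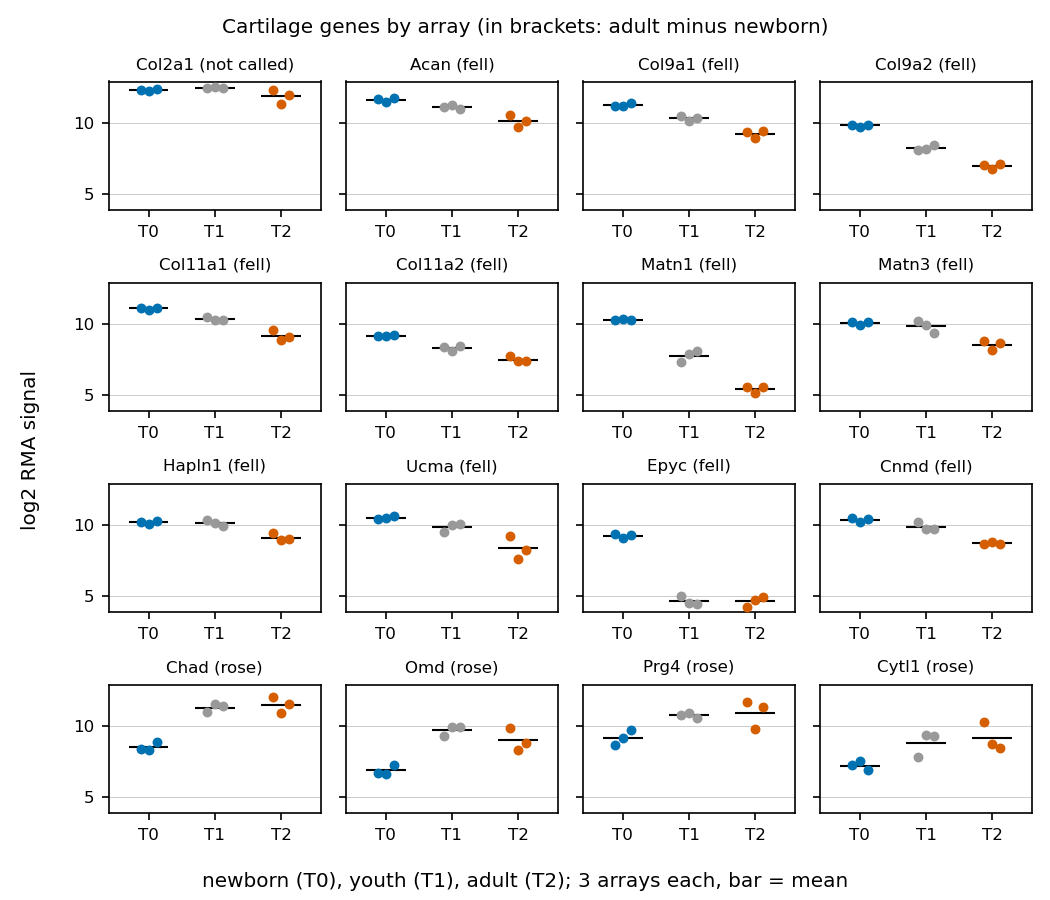
Log2 RMA signal (vertical axis) of 16 cartilage genes in each newborn (T0), youth (T1) and adult (T2) array, with the mean of 3 arrays as a bar and the call of adult minus newborn in brackets. Matn1 and Col9a2 step down from T0 to T1 to T2, Epyc is down at T1 already, and Chad, Omd, Prg4 and Cytl1 are higher at T2 than at T0.

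The small leucine-rich proteoglycans, which coat and space collagen fibrils, split by member. Of 10 measured, 4 fell and 1 rose. Epiphycan, Epyc, a proteoglycan of growing cartilage, read 9.39, 9.09 and 9.31 in the newborn arrays and 4.25, 4.71 and 4.94 in the adult arrays, and fell by 4.63 (SE 0.22, limma adjusted p = 1.33e-08), with youth at 4.63 ± 0.29 (SD, n = 3). Kera, which tendon also expresses, fell by 6.72, Aspn, which binds collagen and TGF-beta, by 4.75, and Ogn by 2.20. Osteomodulin, Omd, read 6.72, 6.65 and 7.27 in the newborn arrays and 9.88, 8.30 and 8.83 in the adult arrays and rose by 2.12 (SE 0.44, limma adjusted p = 0.00385). Dcn (-0.87), Bgn (-0.74), Lum (-0.98), Fmod (-1.14) and Prelp (0.07) were not called.

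Genes of the joint surface moved in both directions, 4 up and 4 down of 14 measured. Lubricin, Prg4, the boundary lubricant of the superficial zone, read 8.68, 9.14 and 9.73 in the newborn arrays and 11.69, 9.79 and 11.38 in the adult arrays. Adult replicate 2 stood near the highest newborn array and the other two adult arrays lay well above. It rose by 1.78 (SE 0.51, limma adjusted p = 0.0325), and without T0 replicate 1 or 2 or T2 replicate 1 or 3 it was not called, with adjusted p up to 0.147. The call of Prg4 was also lost after cyclic loess and with an intensity trend and robust prior. The cytokine-like Cytl1 rose by 1.96, the adhesion molecule Vcam1 by 2.22 and Fgl2 by 2.31. The call of Cytl1 was lost without T0 replicate 1, T0 replicate 2, T0 replicate 3, T2 replicate 1 or T2 replicate 2 (limma adjusted p from 0.0562 to 0.164). The call of Fgl2 was lost without T0 replicate 2 (limma adjusted p = 0.0555) or T0 replicate 3 (0.0527). The hyaluronan synthase Has2 read 7.44, 7.51 and 7.54 in the newborn arrays and 6.30, 5.35 and 5.05 in the adult arrays and fell by 1.93 (SE 0.36, limma adjusted p = 0.00162). The thrombospondin Thbs4 fell by 2.51 and the Wnt modulator Sfrp2 by 2.08. The rises numbered 2 without T0 replicate 1, T0 replicate 3 or T2 replicate 1 and 1 without T0 replicate 2.

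Most collagens of fibrous tissue fell. Of 13 measured, 11 fell and none rose, with a median change of -2.23. Type III collagen, Col3a1, read 12.53, 12.50 and 12.27 in the newborn arrays and 10.59, 8.73 and 8.94 in the adult arrays and fell by 3.01 (SE 0.63, limma adjusted p = 0.00385). Col14a1, which decorates fibrils in tendon and skin, fell by 4.30, and Col12a1 by 3.01. The regulators of fibril width Col5a1, Col5a2 and Col5a3 fell by 2.23, 2.01 and 1.95, and the microfibril chains Col6a2 and Col6a3 by 2.40 and 2.77. Col27a1, which cartilage makes, fell by 1.31. The type I collagen chains Col1a1 (-0.53) and Col1a2 (-0.62) were not called. The tendon list was highest in newborn in the same arrays, at 9.02, 8.99 and 9.08 against 7.85, 6.89 and 7.14, and its part in this result was not tested.

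The machinery that finishes collagen fell with the collagens. Of 24 measured genes for collagen modification and crosslinking, 16 fell and none rose, with a median change of -1.34. The prolyl hydroxylase P4ha3 read 9.96, 9.72 and 9.79 in the newborn arrays and 5.90, 5.39 and 5.76 in the adult arrays and fell by 4.14 (SE 0.20, 17.6-fold, limma adjusted p = 1.64e-08). Lysyl oxidases, which crosslink fibrils outside the cell, fell in all 5 members measured, Lox by 2.37, Loxl1 by 2.42, Loxl2 by 1.96, Loxl3 by 2.03 and Loxl4 by 1.18. The call of Loxl4 was lost without T2 replicate 2 (limma adjusted p = 0.0591). The collagen chaperone Serpinh1 fell by 1.58, the prolyl 3-hydroxylase complex members Crtap and P3h1 by 1.74 and 1.49, and the lysyl hydroxylase Plod1 by 1.24. Plod2 (-0.16) and P4hb (-0.53) were not called. In the secretory pathway and ER stress list, 7 of 27 fell and 1 rose. Creb3l2, a factor for secretory capacity in cartilage, fell by 1.39, while the chaperone Hspa5 (-0.40) and the stress factor Ddit3 (0.60) were not called. These falls numbered 4 without T0 replicate 3 or T2 replicate 2 and 3 without T2 replicate 3.

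Genes that build the sugar chains of proteoglycans changed in a pattern by enzyme. Of 30 measured for chondroitin and heparan sulfate synthesis, 12 fell and 3 rose. The chondroitin polymerases Chsy1 and Chsy3 fell by 1.20 and 1.38, the heparan polymerase Ext2 by 1.32, and Ugdh and Slc35d1, which make and carry sugar precursors, by 1.35 and 1.52. Among the enzymes that place sulfate at position 4 of chondroitin, Chst11 fell and Chst12 and Chst13 rose. Chst11 was at 8.48 ± 0.56 in newborn and 7.42 ± 0.20 in adult (SD, n = 3 each) and fell by 1.06 (SE 0.31, limma adjusted p = 0.0386). The call of Chst11 was lost without T0 replicate 2, T0 replicate 3, T2 replicate 1, T2 replicate 2 or T2 replicate 3 (limma adjusted p from 0.0544 to 0.192). Chst12 read 6.82, 6.62 and 7.21 in the newborn arrays and 8.46, 8.15 and 8.61 in the adult arrays and rose by 1.52 (SE 0.26, limma adjusted p = 0.000832). Chst13 rose by 1.01. The sulfate transporter Slc26a2 (-0.69), the sulfate donor enzyme Papss2 (-1.24) and the position 6 enzyme Chst3 (0.00) were not called. The epimerase Dse, which turns chondroitin into dermatan sulfate, fell by 2.08.

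Matrix proteases were lower or not called, with 1 exception. Of 27 proteases and inhibitors measured, 10 fell and 1 rose, and the falls numbered 6 without T0 replicate 3, T2 replicate 2 or T2 replicate 3. The membrane collagenase Mmp14 read 9.76, 9.67 and 10.01 in the newborn arrays and 8.61, 7.30 and 7.52 in the adult arrays and fell by 2.00 (SE 0.30, limma adjusted p = 0.00028), and the gelatinase Mmp2, which it activates, fell by 2.11. The aggrecan-cleaving Adamts5 fell by 1.21, Adamts1 by 1.64 and Adamts12 by 2.26. The riser was the neutrophil collagenase Mmp8 (5.50), which is also in the neutrophil list. The chondrocyte collagenase Mmp13 read 10.40, 8.74 and 10.44 in the newborn arrays and 11.11, 9.96 and 10.11 in the adult arrays, and its difference of 0.54 was not called. Mmp3 (0.04), Adamts4 (-0.45) and Timp3 (-1.20) were not called.

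The imprinted growth network fell as a group. Of 17 measured members, 14 fell and none rose, with a median change of -2.83. Igf2, a fetal growth factor, read 12.40, 12.39 and 12.44 in the newborn arrays and 5.67, 5.13 and 5.70 in the adult arrays and fell by 6.91 (SE 0.26, 120.3-fold, limma adjusted p = 2.39e-09), with youth at 9.12 ± 0.33 (SD, n = 3). Plagl1, a transcription factor of this network, read 11.24, 11.29 and 11.27 in the newborn arrays and 7.60, 6.59 and 6.89 in the adult arrays and fell by 4.24, and Dlk1, a surface protein of growing tissue, read 11.06, 10.98 and 10.77 in the newborn arrays and 6.68, 5.75 and 6.65 in the adult arrays and fell by 4.57. All adult arrays lay below all newborn arrays for each of these. Gnas, Zim1, Grb10, Slc38a4 and Ndn fell by 5.29, 4.25, 3.24, 3.61 and 3.42. Refits under other settings gave Gnas changes from -5.54 to -3.75. The growth-restraining cell cycle inhibitor Cdkn1c fell as well, by 2.83. Phlda2 (-0.02) and Dio3 (-0.12) were not called.

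The IGF axis and growth hormone receptor list fell in 10 of 18 cases with no rise. Igf1, the postnatal growth factor, read 10.53, 10.35 and 10.40 in the newborn arrays and 8.47, 7.51 and 8.05 in the adult arrays and fell by 2.41 (SE 0.27, limma adjusted p = 2.09e-05). The receptors Igf1r and Igf2r fell by 1.18 and 2.37, the signal adaptor Irs1 by 2.43 and the protease Pappa2, which frees IGF from its binding proteins, by 2.17. The call of Igf1r was lost without T0 replicate 1, T0 replicate 2, T2 replicate 1 or T2 replicate 3 (limma adjusted p from 0.0518 to 0.0726). Binding proteins Igfbp3 and Igfbp6 fell by 3.68 and 2.47, while Igfbp2 (-0.55) and Igfbp7 (-0.63) were not called. Among oncofetal genes 2 of 12 fell and 2 rose. The RNA-binding protein Igf2bp2 read 8.31, 8.33 and 8.33 in the newborn arrays and 4.93, 4.62 and 4.42 in the adult arrays and fell by 3.66. The chromatin protein Hmga2 fell by 2.27, and the transcription factor Arid3a and Lin28a rose by 1.27 and 1.13. The call of Lin28a was lost after quantile normalization (limma adjusted p = 0.0873). Igf2bp1 (-0.60) and Lin28b (-0.15) were not called.

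Signals that pace growing cartilage were lower in the adult, with 12 of 16 measured genes down and none up (median -1.32). The hedgehog effectors Gli1, Gli2 and Gli3 fell by 1.28, 2.00 and 2.66 and the co-receptor Cdon by 1.91. Gli3 read 8.09, 7.93 and 7.90 in the newborn arrays and 5.77, 5.09 and 5.07 in the adult arrays, with no overlap between stages (limma adjusted p = 4.14e-06). Fgfr3, the receptor that brakes chondrocyte division, fell by 1.53, and the C-type natriuretic peptide receptor Npr2, which opposes Fgfr3 signalling, by 1.49. The ligand Ihh (-0.34) and the parathyroid hormone receptor Pth1r (0.08) were not called. Genes of hypertrophy and mineralization gave little: 1 of 17 rose, osteocalcin, and 1 fell, which are shares below those of all genes. The fall was not called without T2 replicate 2. The hypertrophic collagen Col10a1 read 9.05, 8.59 and 9.48 in the newborn arrays and 9.58, 8.45 and 8.90 in the adult arrays, with a difference of -0.06 (SE 0.38, limma adjusted p = 0.977). Youth stood higher than both for this gene, at 10.71 ± 0.47 (SD, n = 3).

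Among 16 chondrocyte transcription factors, 3 fell and 1, Runx1, rose (by 0.91). Sox5, a partner of Sox9, read 6.93, 7.22 and 7.74 in the newborn arrays and 6.00, 5.73 and 5.68 in the adult arrays and fell by 1.49 (SE 0.23, limma adjusted p = 0.000309). Sox6 (-0.16), Runx2 (-0.06) and Runx3 (-0.14) were not called. The falls numbered 1 without T2 replicate 2, and the rise was not called without T0 replicate 2 or 3 or T2 replicate 2 or 3. Limb patterning and joint genes, which set up the skeleton before birth, fell in 8 of 26 cases and rose in none. The limb mesenchyme factor Prrx1 fell by 2.43, the joint factors Osr1 and Osr2 by 2.36 and 1.62, and the hindlimb factor Tbx4 by 1.32. All 26 differences were below 0, from -2.43 to -0.02, beside a median change of -0.02 over all genes. Of these, 18 did not pass the test, for example Pitx1 (-0.94) and Hoxc10 (-1.15).

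In the TGF-beta and BMP list, 15 of 34 fell and 1 rose. Ligands split: Tgfb2 and Tgfb3 fell by 1.97 and 2.21, and Tgfb1 rose by 1.22. Tgfb1 read 7.76, 7.52 and 7.95 in the newborn arrays and 9.08, 8.81 and 8.99 in the adult arrays (limma adjusted p = 0.000393). Bmp4 and Bmp6 fell by 1.63 and 1.09. The BMP receptors Bmpr1a, Bmpr1b and Bmpr2 fell by 2.55, 2.22 and 1.35, and Tgfbr1 (-0.05) was not called. Smad3, which carries the TGF-beta signal in cartilage, fell by 0.97, and the matrix store Ltbp4 by 2.36. In the Wnt list, 13 of 31 fell and 2 rose. Wnt5a, the receptors Fzd7 and Fzd8 and the co-receptor Lrp6 fell by 1.35, 1.65, 1.78 and 1.14. Both risers are secreted antagonists, Wif1 (1.43) and Sfrp5 (0.97), while the antagonist Sfrp2 fell by 2.08 and Frzb (-0.25), typical of articular cartilage, was not called. Wif1 read 6.54, 6.75 and 6.95 in the newborn arrays and 8.87, 7.43 and 8.22 in the adult arrays. The call of Sfrp5 was lost without T0 replicate 2 (limma adjusted p = 0.056), T0 replicate 3 (0.0684) or T2 replicate 1 (0.0987). Of mechanosensing channels and CCN proteins, 10 of 19 fell and none rose. The calcium channel Trpv4 read 8.09, 7.93 and 7.77 in the newborn arrays and 6.31, 5.40 and 6.08 in the adult arrays and fell by 2.00. The channel Piezo1 and the load-sensitive cofactors Yap1 and Wwtr1 fell by 0.98, 1.76 and 1.64, and Ccn2 (-0.40) was not called. These falls numbered 6 without T2 replicate 2 or 3.

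MicroRNA genes fell far more often than they rose: of 363 measured, 65 fell and 5 rose. The share called, 19.3%, was near the 18.8% of all genes, and 41 of the falls lay in 1 region described below. A probe set here reads the RNA of the gene, including its precursor, and does not tell the mature strands apart. The mature sequences of the genes with the smallest p are shown because their seeds (bases 2 to 8, in capitals) set which messages they pair with. They come from RefSeq (GRCr8), where 344 of the 363 genes had an entry. The first 10 sequences belong to the 5 genes that fell with the smallest p, the next 5 to 3 of the 5 genes that rose, and the last 2 to Mir140, a cartilage microRNA chosen after its values were seen.
rno-miR-493-5p: uUGUACAUgguaggcuuucauu
rno-miR-493-3p: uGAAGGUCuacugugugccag
rno-miR-539-5p: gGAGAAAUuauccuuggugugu
rno-miR-539-3p: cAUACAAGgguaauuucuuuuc
rno-miR-410-5p: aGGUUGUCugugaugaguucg
rno-miR-410-3p: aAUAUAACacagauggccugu
rno-miR-300-5p: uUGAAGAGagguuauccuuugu
rno-miR-300-3p: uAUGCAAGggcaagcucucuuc
rno-miR-377-5p: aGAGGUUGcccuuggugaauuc
rno-miR-377-3p: uGAAUCACacaaaggcaacuuuu
rno-miR-223-5p: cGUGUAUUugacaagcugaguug
rno-miR-223-3p: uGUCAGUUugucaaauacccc
rno-miR-1224: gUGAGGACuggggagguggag
rno-miR-142-5p: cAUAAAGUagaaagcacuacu
rno-miR-142-3p: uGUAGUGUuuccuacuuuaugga
rno-miR-140-5p: cAGUGGUUuuacccuaugguag
rno-miR-140-3p: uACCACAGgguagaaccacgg

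The 5 fallen genes all lie between Dlk1 and Dio3, the imprinted region that also holds Meg3. Mir493 read 7.40, 7.68 and 7.48 in the newborn arrays and 3.06, 2.86 and 2.87 in the adult arrays and fell by 4.59 (SE 0.18, limma adjusted p = 2.39e-09). Mir539 read 6.93, 7.08 and 7.04 in the newborn arrays and 2.34, 2.56 and 2.21 in the adult arrays and fell by 4.64, and Mir410, Mir300 and Mir377 fell by 3.53, 3.31 and 4.01. Of 53 microRNA genes measured in this region, 41 fell and none rose, with a median change of -1.79. The arrays of 49 did not overlap, beside 46.3% of all genes. The other 310 microRNA genes had 24 falls and 5 rises, with a median change of -0.11, and the arrays of 111 did not overlap. The median level of the 53 was 5.78 in newborn, 3.07 in youth and 2.93 in adult, so most of the difference was already present in youth. The 12 uncalled genes included the run of neighbours Mir376c, Mir376b, Mir3595 and Mir376a, the pair Mir411 and Mir299b, and Mir770 at the Dlk1 end (0.11). Newborn means of that run were already low, at 1.49, 3.29, 2.04 and 2.19, so a fall there may not have been measurable. Those of Mir411, Mir299b and Mir770 were 3.01, 3.90 and 6.22. Meg3, a long non-coding RNA of the region, read 5.47, 5.46 and 5.21 in the newborn arrays and 4.63, 4.12 and 4.53 in the adult arrays. It fell by 0.95 (SE 0.25, limma adjusted p = 0.0172), a call lost without T0 replicate 1 (limma adjusted p = 0.0656), T0 replicate 2 (0.0695) or T2 replicate 2 (0.0983). At the ends of the region Dlk1 fell by 4.57 and Dio3 (-0.12) was not called. Some fallen genes of the region share a seed. The seed GGUUGUC of miR-410-5p is also that of miR-494-5p and miR-496-5p, and all 3 genes fell. AUACAAG of miR-539-3p is also that of miR-381-3p, whose gene fell by 1.89. All of these genes lie between Dlk1 and Dio3, so a shared seed cannot be told apart from a shared location. The seed AUAUAAC of miR-410-3p is also that of miR-344b-1-3p and GAGGUUG of miR-377-5p that of miR-672-5p. The genes of miR-344b-1-3p and miR-672-5p lie outside the region and were not called.

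**Figure D4:**
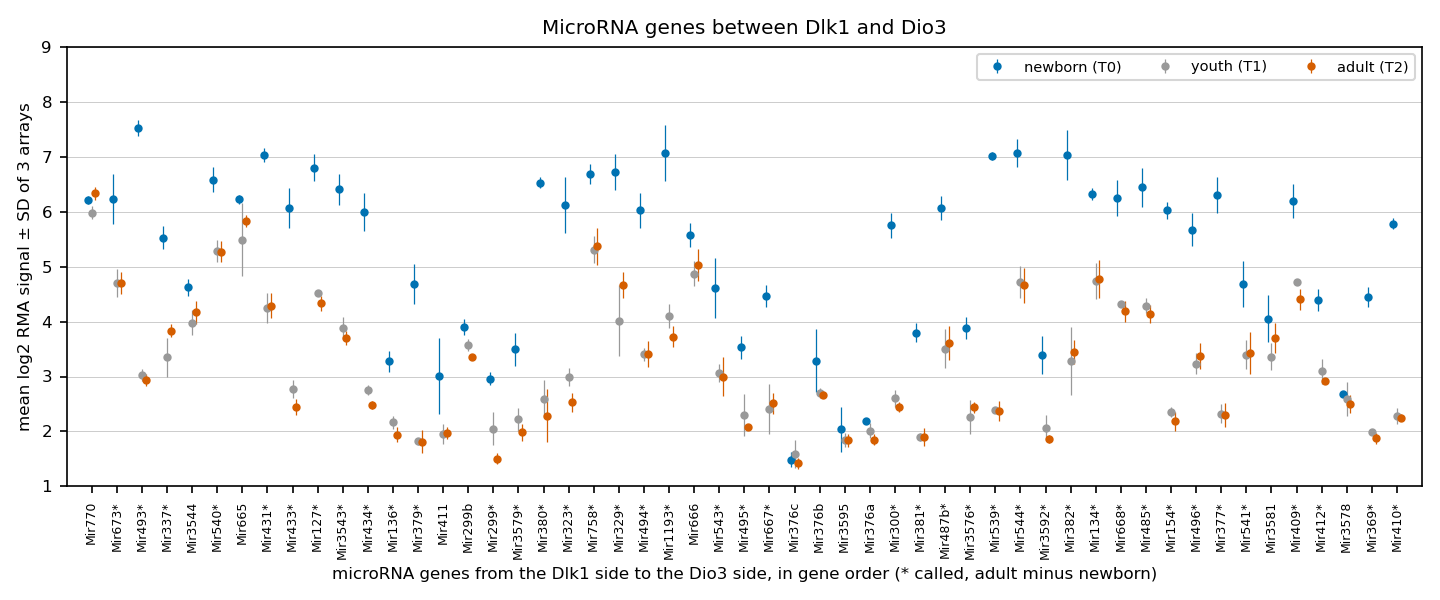
Mean log2 RMA signal ± SD of 3 arrays (vertical axis) of 53 microRNA genes in their order from Dlk1 to Dio3 (horizontal axis), for newborn, youth and adult, with an asterisk on the 41 called in adult minus newborn. Newborn points stand above the adult points along nearly the whole row, and youth points lie close to adult ones.

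Outside that region, 24 groups of 3 or more microRNA genes starting within 10000 bases of each other were measured. All genes fell in 2 of these groups, some fell in 4 and none fell in 18, among them the 6 genes of the Mir17 group and the 10 of the Mir471 group. No gene of the 24 groups rose. All 5 of the group Mir450a1, Mir542, Mir351, Mir503 and Mir322 fell, as did all 3 of Mir199a2, Mir214 and Mir3120 and 3 of 4 of Mir3074, Mir24-1, Mir27b and Mir23b. Mir140, whose sequences stand above, read 7.01, 7.61 and 7.66 in the newborn arrays and 4.84, 4.46 and 4.66 in the adult arrays and fell by 2.78 (SE 0.26, 6.86-fold, limma adjusted p = 4.05e-06). Of the risers, Mir223, a microRNA of myeloid cells, read 3.61, 2.71 and 3.72 in the newborn arrays and 7.20, 7.92 and 7.94 in the adult arrays and rose by 4.34 (SE 0.48, limma adjusted p = 1.96e-05). Mir1224 read 3.84, 2.56 and 2.96 in the newborn arrays and 8.88, 7.33 and 8.80 in the adult arrays and rose by 5.21. Mir142, of blood cells, rose by 1.47, Mir760 by 1.15 and Mir21 by 1.23. The call of Mir142 was lost without T2 replicate 2 (limma adjusted p = 0.058), that of Mir760 without T0 replicate 2 or 3 or T2 replicate 3 (up to 0.0945) and that of Mir21 without T0 replicate 1 or 3 or T2 replicate 1 or 2 (up to 0.097). The neutrophil list rose in the same arrays as Mir223 and Mir142, and its part in their rise was not tested. Long non-coding RNA genes gave 2 falls and no rise among 39 measured, Meg3 and Vof16 (2.30).

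Cell cycle genes were higher in the adult arrays. Of 37 measured, 20 rose and 2 fell, with a median change of 1.13, and the list's mean log2 signal was 7.04, 7.02 and 7.16 in the newborn arrays and 8.09, 8.08 and 8.24 in the adult arrays. The spindle kinase Aurka read 5.99, 5.90 and 5.96 in the newborn arrays and 7.09, 7.41 and 7.56 in the adult arrays and rose by 1.40 (SE 0.20, limma adjusted p = 0.000177). The spindle factor Tpx2, the mitotic kinase Plk1, the cyclin Ccnb1 and the nucleotide reductase Rrm2 rose by 1.86, 1.63, 1.46 and 3.11. The D-type cyclins Ccnd1 and Ccnd2, which answer growth signals, went the other way. Ccnd1 read 6.48, 7.07 and 7.10 in the newborn arrays and 5.92, 4.95 and 5.79 in the adult arrays and fell by 1.33 (SE 0.33, limma adjusted p = 0.0145), and Ccnd2 fell by 1.20. The call of Ccnd1 was lost without T0 replicate 2 (limma adjusted p = 0.0661), T0 replicate 3 (0.0638) or T2 replicate 2 (0.0897). The call of Ccnd2 was lost without T0 replicate 2 (limma adjusted p = 0.0673), T0 replicate 3 (0.0863) or T2 replicate 2 (0.105). Mki67 (1.89), Top2a (1.82) and Pcna (1.14) were not called. The rises numbered 12 without T0 replicate 2 or T2 replicate 2, 13 without T2 replicate 3 and 33 in the model of the 6 arrays alone. The erythroid, neutrophil and B cell precursor genes described above rose in the same arrays, and their part in this result was not tested.

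Genes of arrest and senescence did not move as one. The cyclin-dependent kinase inhibitors Cdkn1a and Cdkn1c fell by 2.19 and 2.83, and Cdkn1b and Cdkn2c rose by 0.88 and 1.19. The call of Cdkn1b was lost without any single array (limma adjusted p from 0.0629 to 0.129). The call of Cdkn2c was lost without T0 replicate 2, T0 replicate 3, T2 replicate 2 or T2 replicate 3 (limma adjusted p from 0.0706 to 0.119). Cdkn1a read 7.96, 7.64 and 7.37 in the newborn arrays and 5.76, 5.34 and 5.32 in the adult arrays (limma adjusted p = 6.91e-06). The retinoblastoma protein Rb1 rose by 2.05, and the senescence markers Cdkn2a (-0.31) and Glb1 (-0.03) were not called. In all, 4 of 15 rose and 3 fell. The rises numbered 2 without T0 replicate 1 or T2 replicate 1 and 1 without any of the other 4 arrays. DNA methylation and chromatin regulators rose in 6 of 20 cases, among them Uhrf1 (by 1.62) and Ezh1 (1.25). These numbered 5 without T0 replicate 3, 3 without T2 replicate 1 and 2 without any one of the remaining arrays.

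Interferon-induced genes rose almost without exception. Of 30 measured, 28 rose and none fell, with a median change of 2.40. The list's mean log2 signal was 4.98, 4.91 and 4.90 in the newborn arrays, 7.14, 6.72 and 7.44 in the youth arrays and 6.72, 7.33 and 8.47 in the adult arrays. The newborn arrays were close to each other, and among adult arrays replicate 3 was highest and replicate 1 lowest. Ifit1, which binds foreign RNA, read 3.85, 3.66 and 3.28 in the newborn arrays and 8.76, 9.62 and 10.58 in the adult arrays and rose by 6.06 (SE 1.17, limma adjusted p = 0.00217). Viperin, Rsad2, read 5.41, 4.97 and 4.71 in the newborn arrays and 9.63, 10.41 and 10.65 in the adult arrays and rose by 5.20 (SE 0.68, limma adjusted p = 8.22e-05). The sensor Ifih1 and the transducers Stat2, Irf9 and Irf7 rose by 2.78, 2.15, 2.32 and 3.66. The immunoproteasome parts Psmb8 and Psmb9 and the peptide transporter Tap1 rose by 3.23, 1.91 and 2.08, and the antiviral Oasl2, Mx2 and Isg15 by 3.76, 2.82 and 3.73. Oas1a (0.65) and Ifi27 (1.15) were not called. The rises numbered 26 to 28 when any single newborn or adult array was left out, so T2 replicate 3 alone did not set the count.

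Promoters of these genes often held 1 short sequence that is named for interferon-stimulated genes. The list was chosen as such genes, so the share that held the sequence does not bear on adult against newborn. The interferon-stimulated response element is bound by the Stat2 and Irf9 complex and by interferon regulatory factors, and its core was searched as GAAANNGAAA on either strand (TTTCNNTTTC), in windows from 250 bases before to 50 after each gene start. Of the 21 interferon list members with a promoter in RefSeq (GRCr8), 15 held it (71.4%). All promoters held it in 1034 of 27457 cases (3.77%), and those of measured genes in 498 of 14564 (3.42%). None of the 16 cartilage matrix, 24 skeletal muscle or 18 neutrophil promoters held it. Within the interferon list it did not follow the calls. The uncalled Oas1a and Ifi27 held 2 matches each, and the called Mx1, Ifi47, Irf9, Oasl, Stat2 and Psmb9 held none. The promoters of Rsad2 and Irf7 are printed with the match in capitals, 5′ to 3′ in the direction of the gene, because they show it in an effector and in the factor that feeds the response. Rsad2 is at chr6:48788071-48788370 and Irf7 at chr1:205799974-205800273, both on the minus strand. Counted from the gene start, the match begins at base -147 for Rsad2 and -69 for Irf7. It is a match of letters only, and binding was not measured.
Rsad2 promoter: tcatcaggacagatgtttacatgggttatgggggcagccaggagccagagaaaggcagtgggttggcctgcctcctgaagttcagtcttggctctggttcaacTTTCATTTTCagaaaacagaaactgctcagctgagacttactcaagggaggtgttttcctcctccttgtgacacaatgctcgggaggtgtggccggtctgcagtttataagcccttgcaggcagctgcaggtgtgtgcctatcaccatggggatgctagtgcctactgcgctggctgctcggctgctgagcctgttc
Irf7 promoter: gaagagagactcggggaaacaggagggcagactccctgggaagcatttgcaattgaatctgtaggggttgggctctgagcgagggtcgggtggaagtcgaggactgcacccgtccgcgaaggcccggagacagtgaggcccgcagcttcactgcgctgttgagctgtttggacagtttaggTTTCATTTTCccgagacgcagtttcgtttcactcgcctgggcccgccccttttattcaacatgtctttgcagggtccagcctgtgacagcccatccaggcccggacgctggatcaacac

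Other immune genes rose in part. MHC class II genes, which present antigen, rose in 9 of 11 cases, in 5 without T0 replicate 2 or T2 replicate 1. The invariant chain Cd74 read 7.93, 7.13 and 7.48 in the newborn arrays and 11.60, 10.76 and 11.06 in the adult arrays and rose by 3.63 (SE 0.51, limma adjusted p = 0.000162), and RT1-Da and RT1-Bb rose by 2.56 and 2.15. RT1 genes are close relatives, so their signals may overlap. Complement rose in 6 of 17 cases and fell in none. C3, the central component, read 5.60, 4.83 and 5.15 in the newborn arrays and 9.90, 9.86 and 10.37 in the adult arrays and rose by 4.86 (SE 0.49, 29-fold, limma adjusted p = 8.81e-06), while C1r (-0.12) and C1s (-0.10) were not called. Inflammatory mediators rose in 8 of 27 cases and fell in 1. The interleukin 1 antagonist Il1rn rose by 3.53, Il1b by 1.85 and Nos2 by 2.04, and the monocyte chemokine Ccl2 fell by 1.96. Il6 (-0.05), Tnf (0.10) and Ptgs2 (-0.07), common readouts of an inflamed joint, were not called. The 8 rises numbered 5 without T0 replicate 2 or T2 replicate 1 or 3. Neutrophils express Il1rn, Il1b and Lcn2, and the part of the neutrophil list in these rises was not tested.

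Of 16 circadian clock genes 9 fell and none rose. Rora and Npas2 fell by 1.57 and 1.82 and the core activator Bmal1 by 1.06. The call of Bmal1 was lost without T0 replicate 2 (limma adjusted p = 0.0624) or T2 replicate 2 (0.0811). Npas2 read 6.77, 7.25 and 7.64 in the newborn arrays and 5.54, 5.15 and 5.51 in the adult arrays, and both Per2 (-0.53) and Dbp (0.38) were not called. The falls numbered 4 without T0 replicate 1 and 3 without T0 replicate 2 or T2 replicate 2, and the labels do not give the hour of collection. Antioxidant and detoxification enzymes rose in 6 of 30 cases and fell in 4. Glutathione genes Gsr, Gclc and Gpx3 rose by 1.64, 1.32 and 1.82, the endoplasmic Gpx7 fell by 1.15, and Sod2 (0.12) and Hmox1 (-0.06) were not called. The 4 falls numbered 2 without T0 replicate 1 or 2 or T2 replicate 2 or 3. Oxidative phosphorylation fell in 6 of 28 cases, led by the mitochondrial regulator Ppargc1a (2.43). The falls numbered 3 without T0 replicate 1 and 1 without T0 replicate 2 or T2 replicate 2, and 15 in the model of the 6 arrays. Of hypoxia and glycolysis genes 1 of 24 rose, the glucose carrier Slc2a3 (2.62), and 3 fell, with the muscle isoform Pfkm lower by 2.26. These falls numbered 1 without T2 replicate 2. Hif1a (-0.28), Ldha (-0.34) and Vegfa (-0.75) were not called. Autophagy genes stayed near the background, with 2 of 23 up and 1 down: Atg7 rose by 1.43, Prkaa2, the kinase form of muscle, fell by 2.06, and Ulk1 (0.22) and Sqstm1 (-0.07) were not called. The autophagy rises numbered 1 without any single one of the 6 arrays, and the falls 2 without T0 replicate 3. Immediate early and stress genes fell in 6 of 25 cases and rose in 1, with the chaperone Hspb1 lower by 3.07 and Fos (-0.25) and Jun (-0.14) not called. Their falls numbered 2 without T0 replicate 1 or T2 replicate 2. The single riser, Fkbp5 (1.35), a target of glucocorticoids, was not called without any single one of the 6 arrays.

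**Figure D5:**
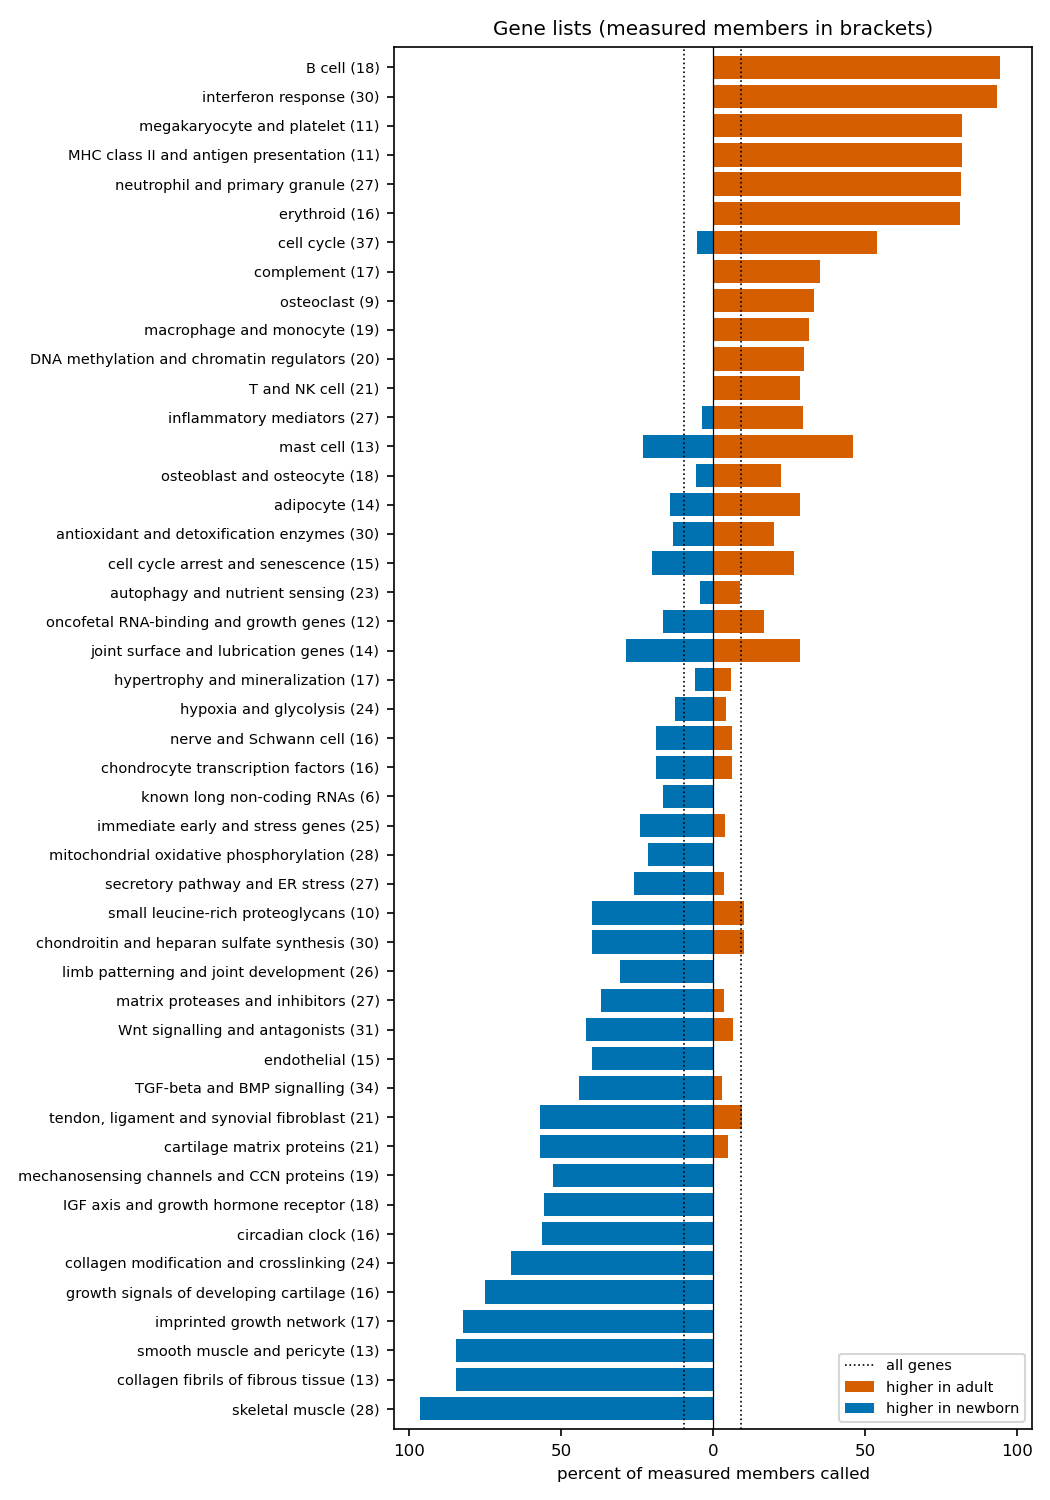
Percent of the measured members of each list that were called, to the right where they rose and to the left where they fell, with dotted lines at the shares over all genes (9.25% rose and 9.56% fell). The B cell and interferon lists lie at the top with nearly all members up, and the skeletal muscle list at the bottom with 27 of 28 down.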

How the data were processed

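RNA was hybridised to Affymetrix RaGene-2_0-st arrays, 1 array per sample. The authors deposited 1 table of log2 signals per probe set, made by RMA (background correction, quantile normalization and a summary over probes) per the submitters' processing notes. The labels name no software version, library file or genome build. The value table was used as deposited. limma 3.58.1 in R 4.3.3 fitted a mean per stage over all 15 arrays with empirical Bayes, and p-values of adult minus newborn were adjusted over 36685 probe sets (Benjamini-Hochberg). All stages were kept in the model for its 10 residual degrees of freedom, although the elderly arrays spread more. The SE is limma's. The script was tested on simulated data.

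Probe sets were named from the platform annotation: 18511 had 1 symbol, 575 several and 17599 none, and 18388 matched the RefSeq gene table (GRCr8). Each of the 291 genes with more than 1 probe set was represented by the probe set of highest mean over all samples, and none of them had probe sets called in opposite directions. Neighbouring microRNA genes were ordered by that table. The samples, 3 per stage, are called biological replicates in the labels. The comparison and all gene lists were chosen with earlier results of these data known, so no list was tested as a set. Genes were named by rule: the 12 largest called rises and falls, excluding uncharacterised, olfactory and microRNA symbols, up to 4 called members per list with the smallest p, a fixed set of cartilage genes, and other members where their list is described. Quoted counts of list members without 1 array come from refits that leave that array out.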

Additional observations from a re-analysis of the deposited data

How the results depend on the processing

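Against 4659 called probe sets (2388 rose, 2271 fell), 7131 (3700 and 3431) were called with only the 6 newborn and adult arrays and 8063 (4096 and 3967) with the 9 arrays of newborn, youth and adult. Array weights gave 9230 (4612 and 4618), and a treat test against a change of 1 on the log2 scale gave 1244 (659 and 585). Leaving out 1 newborn or adult array gave 3508 to 4176 in all, 1820 to 2060 upward and 1661 to 2116 downward. Quantile normalization, equal array medians, cyclic loess, the filter on dim probe sets, 12 arrays, the intensity trend with a robust prior and T1 replicate 3 moved to adult kept the total between 3589 and 6188, within 1.5 times. Every called probe set shared between a setting and the calls reported kept its direction.

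Of 210 genes chosen by the naming rule, 205 were called. Of these, 177 were called in every setting but treat, 28 were lost in 1 or more of the others, and none changed direction. Of the 492 called members of all lists, 80 were not called after quantile normalization, 40 with T1 replicate 3 moved to adult, 26 with the replicate block, 294 under treat and 48 to 102 without 1 newborn or adult array, also with no change of direction. The median SD between the arrays of a stage was 0.19 in newborn and 0.20 in adult against 0.35 and 0.43 in the elderly stages.

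Same-numbered newborn and adult arrays did not deviate together over all probe sets (correlations -0.0116, 0.0583 and 0.0214). These values gave no sign that the numbers pair the samples, and they cannot exclude it. With a replicate block, 4402 probe sets were called (2296 and 2106), and 6250 (3395 and 2855) in a block with the 6 arrays alone, chosen after seeing the data. The number of arrays limits the precision: 3 against 3 cannot reach an exact two-sided permutation p under 0.1 for 1 gene, so calls rest on limma's variance shared over genes.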

Other observations

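Some gene groups not described above also differed between adult and newborn cartilage. They were chosen after their values were seen, so their counts are descriptions. Genes of elastic fibres and microfibrils, the rubber-like part of matrix, fell in 10 of 14 cases. The microfibril-associated Mfap4 read 10.81, 10.52 and 10.41 in the newborn arrays and 7.03, 5.63 and 5.07 in the adult arrays and fell by 4.67, and elastin itself, Eln, Mfap5 and the main microfibril protein Fbn1 fell by 3.86, 4.37 and 2.23. Matricellular proteins, which tune how cells hold on to matrix, fell in 8 of 12 cases and rose in 1, Spon1, which was not called without any single array other than T2 replicate 2. Postn read 12.25, 12.28 and 12.34 in the newborn arrays and 8.48, 6.21 and 6.24 in the adult arrays and fell by 5.31, Tnn by 3.88 and Thbs2 by 3.67, while Sparc (0.01) and fibronectin, Fn1 (-0.21), were not called. Among glypicans and syndecans, which hold growth factors at the cell surface, 5 of 9 fell. Gpc3 read 10.45, 10.34 and 10.27 in the newborn arrays and 4.85, 4.75 and 4.96 in the adult arrays and fell by 5.50, and Gpc4 by 3.11. The 5 falls numbered 3 without T0 replicate 2, T0 replicate 3, T2 replicate 2 or T2 replicate 3. The dystrophin and sarcoglycan complex, which anchors muscle fibres, fell in 7 of 8 cases, with Dmd down by 3.69 and Sgca by 2.12.

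Granule genes of eosinophils and basophils rose in 12 of 13 cases. The eosinophil granule protein Prg2 read 5.85, 5.18 and 5.59 in the newborn arrays and 11.72, 9.62 and 11.44 in the adult arrays and rose by 5.39, the eosinophil peroxidase Epx by 3.74 and the receptor Il5ra by 2.59. The phagocyte NADPH oxidase, which makes superoxide, rose in all 5 members measured, with Cybb up by 4.14 and Ncf1 by 3.72. Levels of the blood lists rose, and of the muscle and tendon lists fell, in the same arrays, and their part in these results was not tested.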
